A study of Mus musculus with 16 samples.

Results

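The cytosolic ribosome is built from rRNA and a fixed set of proteins, whose genes are named Rps for the small subunit and Rpl for the large subunit. On the mouse bead array used here, 85 of 25697 probes, from 67 of 16593 genes with a symbol, carried such a name: Rpl or Rps followed by a digit, Rplp0, Rplp1, Rplp2, Rpsa or Fau, without the Rps6k kinases and without pseudogenes. A probe counted as measured where all 4 arrays of some group had a detection p-value, as the authors deposited it, under 0.01, which 73 of the 85 probes met, so that 60 of the 67 genes were tested. Of these 60, 58 were detected on all 16 arrays, so their measurement did not hang on 1 group. The exceptions were Rpl22l1 and Rpl39l. The 7 genes not tested were Rpl14, Rpl17, Rpl6, Rplp2, Rps23, Rps23rg1 and Rpsa. Rpl14 was detected on 0, 2, 3 and 3 arrays of Basal-total, Ox-total, Basal-ARP and Ox-ARP, and Rpsa on 2, 3, 2 and 2 by the brighter of its probes. The other 5 were not detected on any array.

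Ribosomal proteins are made in near equal numbers, and their mRNAs are among the most abundant and most evenly controlled of a growing cell. Most of these mRNAs begin with a C followed by an unbroken stretch of pyrimidines, the terminal oligopyrimidine (TOP) motif, through which the mTORC1 kinase and the RNA-binding protein Larp1 set their translation. They are short, stable and heavily translated, and ribosomal RNA is a known target of oxidation in neural cells. A further use of some of the proteins is outside the ribosome: Rpl5, Rpl11 and several others bind Mdm2 when ribosome assembly fails, and inherited loss of single members causes Diamond-Blackfan anaemia.

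The cells were Neuro 2a, a mouse neuroblastoma line, which the labels give with strain C57BL/6J. Untreated cells (Basal) were compared with cells given hydrogen peroxide (Ox), an oxidant whose dose and duration the sources used here do not give. The reagent was the aldehyde reactive probe (ARP), which carries biotin and couples to abasic sites in RNA, positions where a nucleotide has lost its base. The array carried either total RNA without pull-down (Basal-total, Ox-total) or the RNA held on streptavidin (Basal-ARP, Ox-ARP), with 4 arrays in each of the 4 groups. No group held RNA captured without ARP, so retention on the beads without label cannot be told apart from abasic sites. The labels do not say that arrays of a group came from separate cultures, so p-values measure the spread between these arrays, which may be technical.

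Chip 1 held replicates 1 and 2 of every group and chip 2 replicates 3 and 4. Array mean signals ran from 328 to 533, 40.3% to 43.1% of probes were detected per array, and no pair of arrays was identical (Pearson 0.95 to 0.995). Of 15 neural and neuroblastoma markers on the array, 11 were detected on all 16 arrays, among them Phox2a, Gata2, Gata3, Hand2 and Dbh, while Nefl and Nefm were detected on none. Of the glial, fibroblast and blood markers, 3 of 4, 4 of 5 and 3 of 3 were detected on none. The glial gene detected on all arrays was Mbp. The array Basal-ARP 3 had the lowest mean over the ribosomal protein genes, 12.25 on the log2 scale.

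All levels below are log2 of the background-corrected, quantile-normalized probe intensity, and all changes are differences of these with limma's standard error. Each gene is given by its brightest probe. A gene was called changed at an adjusted p under 0.05, Benjamini-Hochberg over all 8072 features tested. Quantile normalization makes every array alike in its distribution, so a change on capture is a shift in share of the captured RNA and not an amount recovered. The mean level of the 60 genes ran from 5.54 to 14.52 with a median of 13.13, against 8.46 for all features, and 48 of the 60 were brighter than 90% of all features. The highest scanner intensity of any of these probes was 27869.6, beside 27945.71 for any probe on the array. For 44 of the 60 genes the RefSeq table holds at least 1 pseudogene named after it (24 for Rpl31, 15 for Rpl21), whose transcripts a probe could also bind. Probe sequences were not used here, so that share was not tested.

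The start of the gene holds the TOP motif. For 58 of the 67 genes RefSeq (assembly GRCm38.p6) gave a start site, and the window from 10 bases before it to 20 bases from it was searched on the gene's own strand. A run of at least 5 letters C or T, with a C at the annotated start base, was present at a start of 12 of these 58 genes (20.7%), against 2.97% of 26967 other genes and 3.01% of all genes. A run of that length beginning with C anywhere in the window was present in 67.2% of the 58, against 39.5% of the others. The windows below belong to genes whose values are described further on, chosen because each has the run at its start. They read 5′ to 3′, the annotated start is the eleventh base, and capitals mark the longest run of C and T that begins with C.
Rps27: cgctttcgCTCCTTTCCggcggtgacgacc
Rps21: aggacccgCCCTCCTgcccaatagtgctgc
Rps15a: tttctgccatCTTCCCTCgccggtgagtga
Rpl28: tctcgtgtCTCTCTTTCCgtctccggccgc
Rpl38: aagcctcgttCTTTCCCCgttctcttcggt
Fau: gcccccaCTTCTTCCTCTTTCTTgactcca

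Rps27 lies at chr3:90213629-90213658 on the minus strand, Rps21 at chr2:180257369-180257398 on the plus strand, and Rps15a at chr7:118116128-118116157 on the minus strand. Rpl28 lies at chr7:4792955-4792984, Rpl38 at chr11:114668570-114668599 and Fau at chr19:6057937-6057966, all on the plus strand. A match is a description of these letters, and a gene without it in this window may have other starts.

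The first comparison asked which ribosomal protein mRNAs were over- or under-represented in the ARP-captured RNA of untreated cells. Of the 60 genes, 21 fell in Basal-ARP against Basal-total, 3 rose (Rps15a, Rpl28 and Rpl22) and 36 did not pass the test. The share called was 40% in either direction, against 32.4% of all features. By direction, 35% of the genes fell against 16.1% of all features, and 5% rose against 16.4%. Their median change was -0.22, with 46 of 60 below 0, against a median of 0.01 over all features. The range was wide, from -1.24 to 0.67, and the plot of changes by gene shows both ends.

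**Figure D1:**
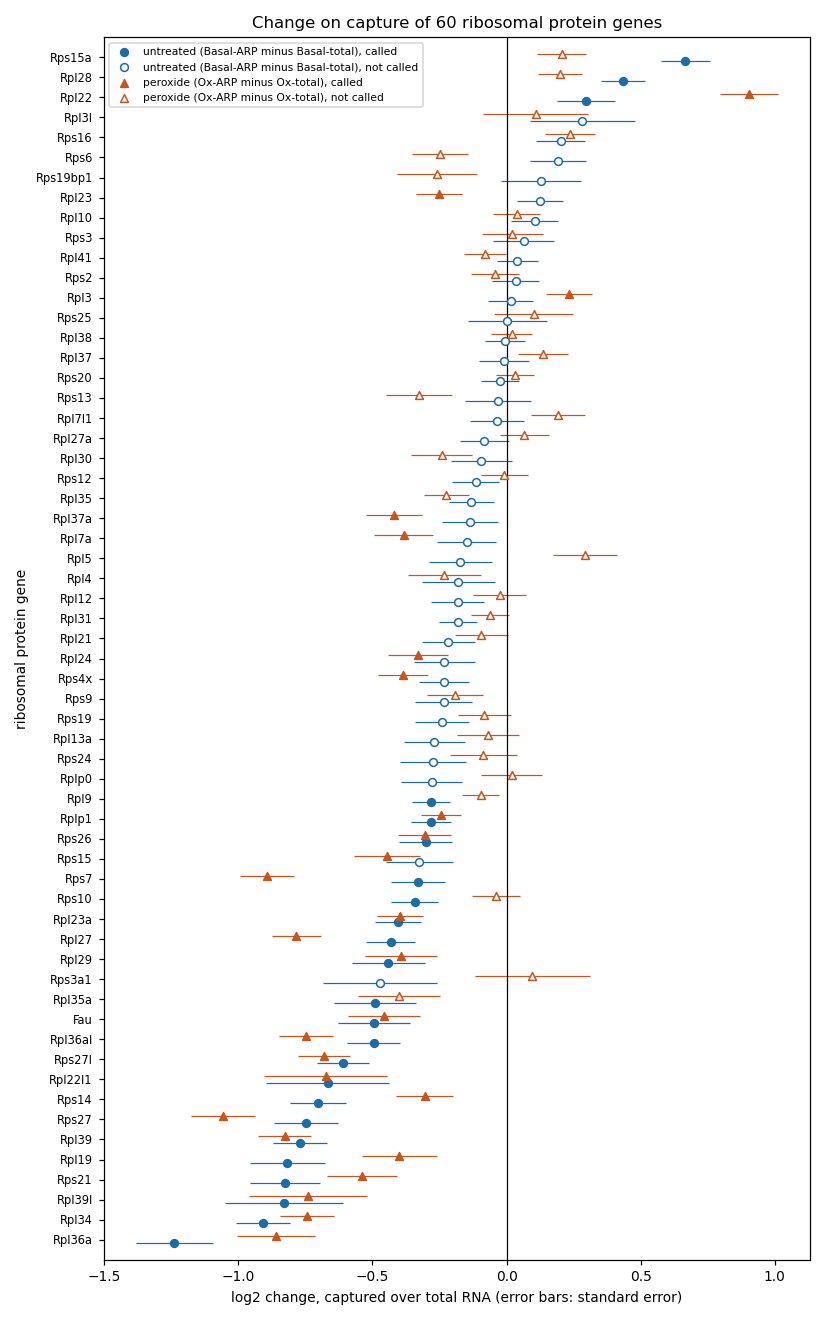
Log2 change on capture of each of the 60 genes, ordered by the change in untreated cells. Circles are untreated cells and triangles peroxide-treated cells, filled where called, and bars are limma's standard error (4 arrays per group). Most points lie left of 0, from Rpl36a at -1.24 in untreated cells to Rpl22 at 0.90 after peroxide.

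The lowest change in untreated cells belonged to Rpl36a, a small zinc-binding protein of the large subunit. Its level was 12.53, 12.31, 12.83 and 12.64 on the Basal-total arrays and 11.20, 11.22, 11.51 and 11.42 on the Basal-ARP arrays. Every captured array was thus below every total array, and the gene fell by 1.24 ± 0.14 (adjusted p = 8.5e-06). Its near copy Rpl36al also fell, by 0.50 ± 0.10 (adjusted p = 0.0012), and how far each probe binds the other's mRNA was not tested.

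Rpl34, another large-subunit protein, read 12.95, 12.94, 12.80 and 13.09 in Basal-total and 12.16, 12.15, 11.77 and 12.06 in Basal-ARP. The groups did not overlap, and it fell by 0.91 ± 0.10 (adjusted p = 5e-06). Rpl39, one of the smallest ribosomal proteins and a lining of the peptide exit tunnel, read 13.79, 13.72, 13.72 and 13.82 in Basal-total and 13.09, 13.16, 12.79 and 12.95 in Basal-ARP. It fell by 0.77 ± 0.10 (adjusted p = 2.7e-05), again with no overlap. Its paralog Rpl39l fell by 0.83 ± 0.22 (adjusted p = 0.0085), from a probe not detected on all 16 arrays. That probe passed the filter through the total groups only, the side where it was higher. Rpl19, which bridges to the small subunit, fell by 0.82 ± 0.14 (adjusted p = 0.00035).

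In the small subunit, Rps21 fell by 0.83 ± 0.13 (adjusted p = 0.00017), from 13.52, 13.41, 13.79 and 13.84 to 12.75, 12.87, 12.66 and 12.98. Rps27, a zinc-finger protein, read 13.38, 13.27, 13.43 and 13.73 in Basal-total and 12.89, 12.63, 12.57 and 12.74 in Basal-ARP. It fell by 0.75 ± 0.12 (adjusted p = 0.00019), and its paralog Rps27l, which is known as a p53 target, fell by 0.61 ± 0.10 (adjusted p = 0.00018). Rps14, whose human counterpart is lost in the 5q- syndrome, fell by 0.70 ± 0.11 (adjusted p = 0.00011). In each of these the captured arrays were all below the total arrays.

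Fau is translated as a ubiquitin-like domain fused to the small-subunit protein Rps30, and it fell by 0.49 ± 0.13 (adjusted p = 0.0099). Of the stalk proteins, which recruit elongation factors to the large subunit, Rplp1 fell by 0.28 ± 0.07 (adjusted p = 0.0082) and Rplp0 stood at -0.28 ± 0.11 (adjusted p = 0.069). The Rplp1 call ended under median scaling, under cyclic loess and with the authors' processed values. Rpl5, which carries the smallest rRNA into the large subunit, stood at -0.17 ± 0.12 (adjusted p = 0.28). Smaller decreases that passed were those of Rpl27, Rpl23a, Rps7, Rpl29, Rps10, Rpl35a, Rps26 and Rpl9, all between -0.28 and -0.49. The other passing Rpl29 probe stood at 0.06 ± 0.12 and was not called (adjusted p = 0.736). On capture after peroxide that probe fell by 0.49 ± 0.12 (adjusted p = 0.00557). Rpl22l1 was not well above background on any Basal-ARP array and on 2 of the Basal-total arrays, and was at least 1.19-fold lower after capture (adjusted p = 0.034), a bound that sets its captured level no lower than the lowest signal detected on each array.

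The increases were fewer. Rps15a, a small-subunit protein, read 8.06, 8.24, 7.86 and 8.08 in Basal-total and 8.81, 8.72, 8.74 and 8.64 in Basal-ARP, all captured arrays above all total arrays. It rose by 0.67 ± 0.09 (adjusted p = 5.2e-05), a call that ended where arrays were not normalized (adjusted p = 0.0863). Rpl28, of the large subunit, rose by 0.44 ± 0.08 (adjusted p = 0.00073), from 13.66, 13.73, 13.60 and 13.61 to 14.17, 14.10, 13.92 and 14.15. That call was lost without normalization (0.23, adjusted p = 0.402) and on chip 2 alone (0.43, adjusted p = 0.0576). Rpl22, a large-subunit protein that also binds structured RNA outside the ribosome, rose by 0.30 ± 0.11 (adjusted p = 0.043), with groups that overlapped. Leaving out 1 array at a time ended the Rpl22 call for 9 of the 16 arrays, with an adjusted p of up to 0.132, and it also ended under median scaling, cyclic loess, no filter and no normalization (0.15, adjusted p = 0.649).

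By subunit, 1 of 21 small-subunit genes rose and 6 fell (median -0.24), and 2 of 31 large-subunit genes rose and 10 fell (median -0.18). Of the 7 other genes that the symbol rule takes in (Rpl22l1, Rpl39l, Rpl3l, Rpl7l1, Rps27l, Rpl36al and Rps19bp1, the last a binding partner of Rps19 and not a ribosomal protein), 4 fell and 0 rose. Of those 4, Rpl22l1 and Rpl39l passed the filter only through groups of total RNA. Among 12 genes known from Diamond-Blackfan anaemia, 6 fell and 1 rose. Over all features, 16.1% fell and 16.4% rose. Within chips, 2 genes rose and 10 fell on chip 1 alone and 1 rose and 15 fell on chip 2 alone, with medians of -0.15 and -0.24, beside 16.8% and 12.6% of all features called. With chip as a block, 3 rose and 27 fell, beside 41.0% of all features called in that fit. Without array Basal-ARP 3, 3 rose and 20 fell and the median was -0.17.

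Peroxide-treated cells gave the same comparison, with changes from arrays that did not enter the changes of the untreated one. The estimate of spread between arrays came from all groups in both comparisons. Of the 60 genes, 24 fell in Ox-ARP against Ox-total, 2 rose (Rpl22 and Rpl3) and 34 did not pass. The share called was 43.3%, against 25.9% of all features. In the downward direction it was 40% against 12.4%, and upward 3.33% against 13.5%. The median was -0.23, with 43 of 60 below 0, against 0.03 over all features.

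The lowest change here was that of Rps27. It read 13.46, 13.45, 13.69 and 13.63 in Ox-total and 12.65, 12.36, 12.28 and 12.70 in Ox-ARP, and fell by 1.06 ± 0.12 (adjusted p = 7.7e-06). Rps7, a small-subunit protein that also binds Mdm2, read 14.17, 14.01, 14.49 and 14.31 in Ox-total and 13.53, 13.18, 13.27 and 13.44 in Ox-ARP. It fell by 0.89 ± 0.10 (adjusted p = 7.4e-06), against 0.33 ± 0.10 (adjusted p = 0.018) in untreated cells. In both genes the captured arrays were all below the total arrays.

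Rpl36a again fell, by 0.86 ± 0.14 (adjusted p = 0.00036), with 12.32, 12.30, 12.90 and 12.84 in Ox-total and 11.52, 11.77, 11.80 and 11.84 in Ox-ARP. Rpl39 fell by 0.83 ± 0.10 (adjusted p = 1.5e-05), from 13.72, 13.66, 13.82 and 13.82 to 13.02, 12.85, 12.71 and 13.13. Rpl34 fell by 0.74 ± 0.10 (adjusted p = 4.8e-05). These are all large-subunit proteins, and none of their groups overlapped. Rpl27, of the large subunit and a Diamond-Blackfan gene, fell by 0.78 ± 0.09 (adjusted p = 9.6e-06), the near copy Rpl36al by 0.75 ± 0.10 (adjusted p = 3.7e-05) and Rps27l by 0.68 ± 0.10 (adjusted p = 7.5e-05). Rpl37a and Rps4x fell here by 0.42 ± 0.10 (adjusted p = 0.0067) and 0.39 ± 0.09 (adjusted p = 0.0056).

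Rpl22 rose further than any other of the 60 genes. It read 10.94, 10.77, 10.67 and 10.83 in Ox-total and 11.79, 11.82, 11.66 and 11.57 in Ox-ARP, a rise of 0.90 ± 0.11 (adjusted p = 1.2e-05) with no overlap. The increase of Rpl3, which reaches towards the peptidyl transferase centre, was 0.23 ± 0.08, with an adjusted p that rounds to 0.05 and lay just under the threshold, and it was lost on leaving out any 1 of 12 arrays (adjusted p up to 0.139). It was 0.03 with median scaling (adjusted p = 0.918). Fau fell by 0.46 ± 0.13 (adjusted p = 0.018), a call lost without Ox-total 1 or Ox-total 2 (adjusted p up to 0.0613). Rplp1 fell by 0.25 ± 0.07 (adjusted p = 0.022), lost without Ox-total 1, Ox-total 4 or Ox-ARP 4 (adjusted p up to 0.0845) and under the same alternatives as in untreated cells. The remaining decreases, of Rps21, Rpl23a, Rpl29, Rps26, Rpl7a, Rps15, Rpl24 and Rpl39l, lay between -0.31 and -0.74. Rpl22l1 was also called lower (adjusted p = 0.038), but only 1 of the 4 Ox-ARP arrays measured it above background. Rpl39l was detected on 3 of them. Rpl22l1 passed the filter through Ox-total only, and Rpl39l through the total groups only. Their place in the test thus hung on the side where they were higher. The decreases of Rpl19 (-0.40), Rpl23 (-0.25) and Rps14 (-0.31) were lost without any 1 of 11, 7 and 7 arrays, with adjusted p up to 0.149, 0.113 and 0.114. The Rpl23 call also ended under median scaling, cyclic loess, the authors' processed values and the mean of its probes. Its other passing probes stood at 0.13 ± 0.08 (adjusted p = 0.259) and -0.30 ± 0.10 (adjusted p = 0.0296). Rplp0 stood at 0.02 ± 0.11 and Rpl5 at 0.29 ± 0.12 (adjusted p = 0.078).

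By subunit, 0 of 21 small-subunit genes rose and 7 fell (median -0.09), and 2 of 31 large-subunit genes rose and 12 fell (median -0.22). Of the 7 others, 4 fell and 0 rose, again with Rpl22l1 and Rpl39l among the 4. Of the 12 Diamond-Blackfan genes, 4 fell and 0 rose. Over all features, 12.4% fell and 13.5% rose. On chip 1 alone 1 gene rose and 13 fell (median -0.23), and on chip 2 alone 1 rose and 10 fell (median -0.15), beside 14.6% and 6.78% of all features called. With chip as a block 4 rose and 27 fell, beside 33.4% of all features.

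Set side by side, 18 genes fell in both capture comparisons, which is 85.7% of the 21 that fell in untreated cells and 75% of the 24 that fell after peroxide. Only Rpl22 was called up in both, and no gene was called in opposite directions. The changes of the 60 genes correlated at Pearson 0.746 and Spearman 0.747, beside a Pearson of 0.681 over all 8072 features. This is a correlation across genes, which are not independent replicates, and no array entered the changes of both comparisons. The standard errors and adjusted p-values of both came from a shared fit over all arrays, so the calls were not independent tests. The Rpl19 call after peroxide, for example, was lost on leaving out some arrays of untreated cells. All called genes moved the same way in each of the 4 same-numbered pairs of arrays.

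**Figure D2:**
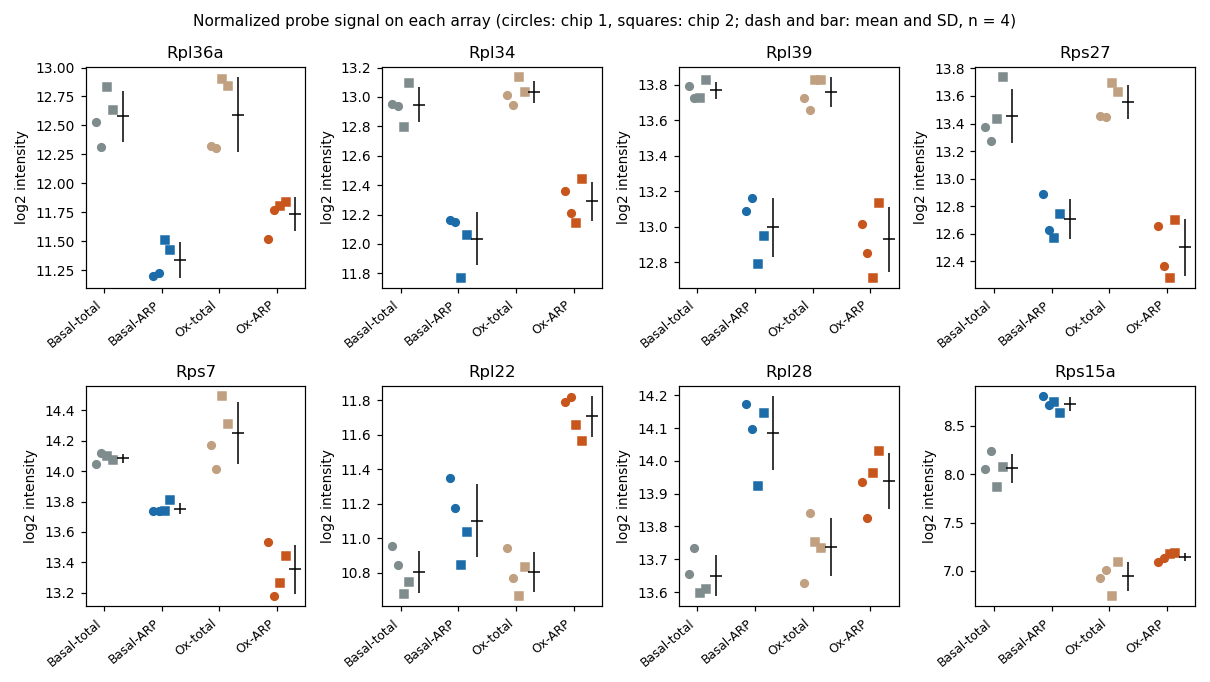
Normalized log2 intensity on each of the 16 arrays for 8 genes, with circles for chip 1, squares for chip 2, and a dash and bar for the mean and SD (n = 4 arrays per group). The vertical axes do not start at 0 and differ between genes. Rpl36a, Rpl34, Rpl39, Rps27 and Rps7 are lower in both captured groups than in both total groups, Rpl22 is highest in Ox-ARP, and Rps15a is lower after peroxide in total and in captured RNA.

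How far the capture change differed with peroxide was tested directly, as the capture change of treated cells less that of untreated cells (the interaction). No member passed it in limma, against 1.55% of all features (0.694% upward and 0.855% downward). The nearest were Rpl22, whose change was 0.61 ± 0.15 higher with peroxide (adjusted p = 0.056), and Rps7, whose change was 0.56 ± 0.14 lower, at -0.56 (adjusted p = 0.057). In a fit over all 10794 passing probes in place of genes, both passed (adjusted p = 0.0452 and 0.0465). In that fit 1 of the 73 member probes was called up and 1 down, beside 2.48% of all passing probes called. With chip as a block 5 members passed, Rpl22 and Rpl5 upward and Rps7, Rps15a and Rpl23 downward, beside 6.52% of all features called in that fit. Over the alternatives run, the adjusted p ran from 0.00554 to 0.36 for Rpl22 and from 0.0212 to 0.813 for Rps7.

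In total RNA, peroxide moved a single member. Rps15a, with 8.06, 8.24, 7.86 and 8.08 in Basal-total, read 6.93, 7.01, 6.74 and 7.09 in Ox-total. Every treated array was below every untreated one, and the gene fell by 1.12 ± 0.09 (adjusted p = 5.9e-06). It was 1 of 60 members called (1.67%), against 0.31% of all features (0.0619% upward and 0.248% downward). The value was -1.18 on chip 1 and -1.06 on chip 2, where the call was lost on chip 2 alone (adjusted p = 0.145), and also where arrays were not normalized (adjusted p = 0.118). Rps15a is represented by a single probe, so no other probe of the gene could be set beside it. This probe was dim for the set, with a mean level of 7.72 (percentile 37.4 of all features) against a median of 13.13 over the 60 genes. RefSeq holds 8 pseudogenes named after Rps15a, and which transcripts the probe measured was not tested. For the other 59 genes the changes ran from -0.22 to 0.33, none passed, and the median of the 60 was 0.01 against 0.02 over all features.

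In captured RNA, Ox-ARP against Basal-ARP asks the same of the retained fraction. Of the 60 genes, 7 rose, 6 fell and 47 did not pass. The share called, 21.7%, lay below the 27.4% of all features, with 11.7% up against 13.9% and 10% down against 13.5%. The median change was 0.07, against 0.03 over all features, and 0.03 against 0.02 without Basal-ARP 3. Without Ox-ARP 1 it was 0.04, and with cyclic loess 0.0027. This comparison shares its arrays with both capture comparisons, so its values are given beside theirs and not as further evidence. With median scaling, cyclic loess or the authors' processed values the split was 9 up and 4 down, and without normalization 6 up and 2 down.

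Rps15a had the lowest value, with 8.81, 8.72, 8.74 and 8.64 in Basal-ARP and 7.09, 7.14, 7.17 and 7.19 in Ox-ARP, and it fell by 1.58 ± 0.09 (adjusted p = 2.3e-08). It thus fell in captured as in total RNA. Its capture change was 0.67 without peroxide and 0.21 ± 0.09 with it (adjusted p = 0.12), a difference of -0.46 ± 0.13 (adjusted p = 0.081). Rps6, the small-subunit protein phosphorylated by the Rps6k kinases, read 13.17, 12.97, 13.03 and 13.27 in Basal-ARP and 12.74, 12.40, 12.68 and 12.53 in Ox-ARP. It fell by 0.52 ± 0.11 (adjusted p = 0.0019), with a total-RNA change of -0.08. Rpl23, an Mdm2-binding protein of the large subunit, fell by 0.44 ± 0.09 (adjusted p = 0.0016), from 14.36, 14.41, 14.10 and 14.38 to 13.95, 13.86, 13.78 and 13.89. The other passing Rpl23 probes stood at 0.10 ± 0.08 (adjusted p = 0.375) and 0.20 ± 0.10 (adjusted p = 0.127) in this comparison. With the mean of its probes, Rpl23 stood at -0.05 and was not called (adjusted p = 0.617), so its decrease rests on 1 of 3 probes.

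Rps7 fell by 0.40 ± 0.10 (adjusted p = 0.0076), with all Ox-ARP arrays below all Basal-ARP arrays. Rpl37a and Rpl36al fell by 0.31 and 0.29 (adjusted p = 0.037 and 0.04), calls lost without any 1 of 5 and 7 arrays (adjusted p up to 0.0979 and 0.111). Both calls also ended under median scaling, cyclic loess, no filter, the authors' processed values and no normalization, where both stood at -0.02 (adjusted p = 0.962 and 0.941). Without normalization the calls of Rps6 (-0.24, adjusted p = 0.314) and Rps7 (-0.18, adjusted p = 0.461) ended too. Among those that rose, Rpl22 gained 0.60 ± 0.11 (adjusted p = 0.00079), from 11.35, 11.18, 10.85 and 11.04 to values between 11.57 and 11.82. In total RNA its level differed by 0.00 ± 0.11 between treated and untreated cells (adjusted p = 0.99).

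Rpl19 rose by 0.61 ± 0.14 (adjusted p = 0.0047), from 11.78, 11.39, 10.96 and 11.34 to 12.17, 11.98, 11.65 and 12.08. These groups overlapped, since Ox-ARP 3 lay below Basal-ARP 1. Rplp0 rose by 0.42 ± 0.11 (adjusted p = 0.012), with 10.53, 10.30, 9.85 and 10.09 in Basal-ARP and 10.74, 10.66, 10.54 and 10.51 in Ox-ARP. Smaller increases were those of Rpl21 (0.38, adjusted p = 0.0094), Rpl27a (0.34, adjusted p = 0.012), Rpl7l1 (0.30, adjusted p = 0.033) and Rps3a1 (0.67 ± 0.21, adjusted p = 0.027). The other passing probe of Rpl21 stood at 0.19 ± 0.10 and was not called (adjusted p = 0.151). Those of Rplp0, Rpl27a and Rpl7l1 were called up, at 0.92, 0.57 and 0.73. The Rplp0 and Rpl27a ones were detected on 2 and 1 of the Basal-ARP arrays and passed the filter through Ox-ARP only. Their place in the fit thus hung on the group where they were higher. The Rpl7l1 call was lost without Basal-ARP 3, Basal-ARP 4, Ox-ARP 1 or Ox-ARP 4 (adjusted p up to 0.116). Without normalization the calls of Rpl21, Rpl27a and Rps3a1 ended (adjusted p = 0.153, 0.128 and 0.118). The Rps3a1 call was also lost without Basal-ARP 1, Basal-ARP 2 or Ox-ARP 4 (adjusted p up to 0.0926). Rpl36a stood at 0.39 ± 0.14 (adjusted p = 0.052), with no overlap.

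**Figure D3:**
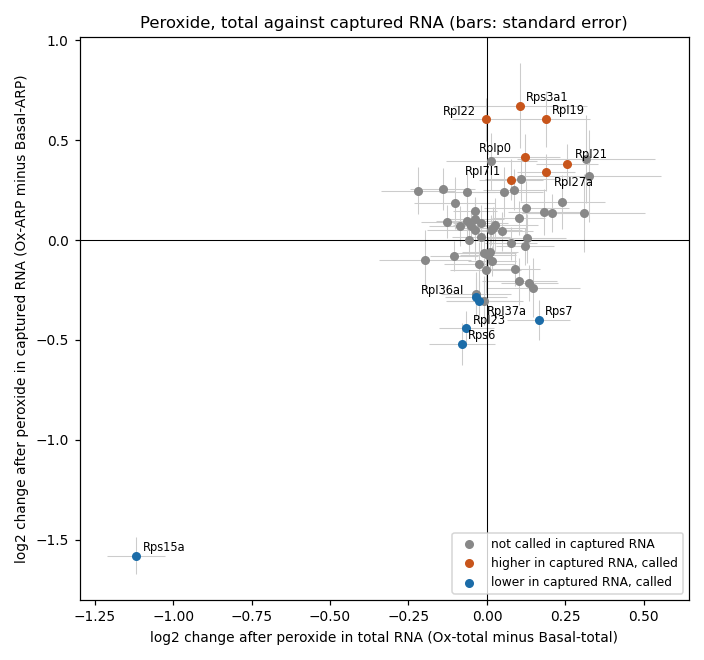
Log2 change after peroxide in total RNA (horizontal axis) against that in captured RNA (vertical axis) for the 60 genes, with limma's standard error as bars and colours for calls in captured RNA. Rps15a lies apart at -1.12 and -1.58, and the other 59 genes lie between -0.22 and 0.33 in total RNA.

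By role, 1 of 21 small-subunit genes rose and 3 fell in captured RNA after peroxide, 5 of 31 large-subunit genes rose and 2 fell, and among the 7 others Rpl7l1 rose and Rpl36al fell. Within chips, 3 genes rose and 2 fell on chip 1 alone, and 4 rose and 1 fell on chip 2 alone, beside 8.86% and 8.67% of all features called. With chip as a block 11 rose and 9 fell, beside 36.6% of all features. In the main fit, which gave the counts by role, 13.9% of all features rose and 13.5% fell.

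Groups of arrays that did not overlap were counted for all 60 genes beside all features. They were 24 genes (40%) against 27.6% for capture in untreated cells and 25 genes (41.7%) against 28.2% for capture after peroxide. For peroxide they were 2 genes (3.33%) against 6.65% in total RNA and 15 genes (25%) against 25.9% in captured RNA. The shares called in these comparisons were 32.4%, 25.9%, 0.31% and 27.4% of all features, as above.

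Several genes had more than 1 passing probe, and the probes did not always give the same size of change. The 12 such genes had no probe pair called in opposite directions. Over the 73 passing probes, 3 rose and 25 fell on capture in untreated cells and 2 rose and 29 fell after peroxide, against 31.9% and 27.0% of all passing probes called. In untreated cells 4 of the 12 dimmest probes and 1 of the 12 brightest probes were called, and after peroxide 6 and 2. Rpl38, Rps24 and Rps19 are described here because their probes differed, a choice made after their values were seen.

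Rpl38, which in mouse governs the translation of some Hox mRNAs, has probes annotated to different transcripts of the gene. The brighter read 14.44, 14.49, 14.44 and 14.38 in Basal-total and 14.44, 14.40, 14.51 and 14.37 in Basal-ARP, a change of -0.01 ± 0.08 (adjusted p = 0.96). The dimmer read 11.13, 11.14, 11.08 and 11.21 in Basal-total and 10.35, 10.29, 9.84 and 10.22 in Basal-ARP, and fell by 0.97 ± 0.11 (adjusted p = 1.02e-05). After peroxide the brighter changed by 0.02 ± 0.08 (adjusted p = 0.88), while the dimmer read 11.32, 11.19, 11.15 and 11.27 in Ox-total and 9.98, 9.64, 10.11 and 9.87 in Ox-ARP. The dimmer probe fell by 1.33 ± 0.11 (adjusted p = 3.41e-07). For this gene the outcome thus depended on the probe, and the counts by gene above use the brighter one.

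Rps24 and Rps19 are small-subunit proteins and Diamond-Blackfan genes. The brighter Rps24 probe, with a mean level of 14.09, was not called on capture (-0.27 and -0.09). The dimmer, with a mean of 9.16, fell by 0.67 ± 0.13 (adjusted p = 0.0012) in untreated cells and by 0.46 ± 0.13 (adjusted p = 0.0165) after peroxide. The brighter Rps19 probe, at 13.99, was not called (-0.24 and -0.08), whereas the dimmer, at 5.71, fell by 0.46 ± 0.14 (adjusted p = 0.0212) in untreated cells, where 2 of the 4 Basal-ARP arrays detected it. No Ox-ARP array detected it, and after peroxide it was at least 1.5-fold lower on capture (adjusted p = 0.00159). This Rps19 probe passed the filter through the total groups only, so its place in the fit hung on the side where it was higher. Rpl7l1 went the other way, its dimmer probe rising by 0.74 (adjusted p = 0.00139) on capture after peroxide, where its brighter probe was not called. That dimmer probe was detected on 2 Ox-total and 4 Ox-ARP arrays. It passed the filter through the captured groups only, so its place in the fit hung on the side where it rose.

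**Figure D4:**
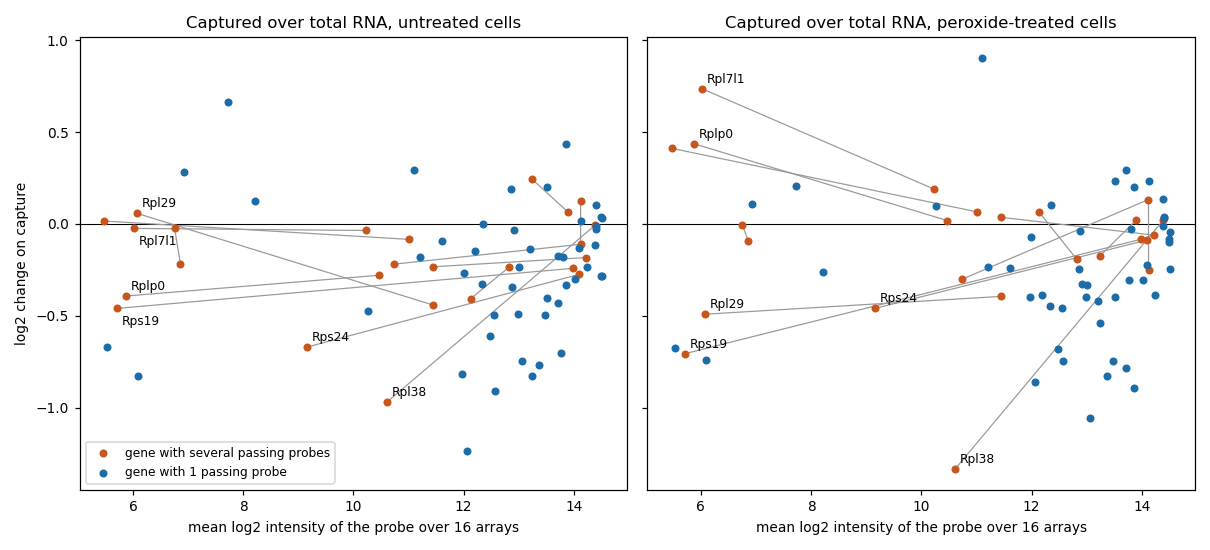
Mean log2 intensity of each of the 73 passing probes over 16 arrays (horizontal axis) against its change on capture in untreated (left) and peroxide-treated cells (right). Lines join probes of the same gene. The probes of Rpl38 stand at -0.01 and -0.97 on the left and at 0.02 and -1.33 on the right.

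The 60 genes were split into 3 sets of 20 by the mean level of the brightest probe over all arrays, 5.54 to 12.36, 12.48 to 13.80 and 13.85 to 14.52. In untreated cells the numbers called up and down on capture were 2 and 5 in the dimmest set, 0 and 12 in the middle set and 1 and 4 in the brightest. The median size of the change was 0.28, 0.42 and 0.13 in that order. After peroxide the numbers were 1 and 7, 0 and 12, and 1 and 5, with median sizes of 0.24, 0.40 and 0.09. The brightest set thus had the smallest changes in both. Beside these counts, 16.4% of all features rose and 16.1% fell in untreated cells, and 13.5% and 12.4% after peroxide. All 7 genes that rose in captured RNA after peroxide lay in the dimmest set, where the median was 0.30. The part of signal strength, and of crowding at the top of the scale, in these differences was not tested.

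Across the 60 genes, the change on capture had a Spearman correlation of 0.193 with the genomic span of the gene in untreated cells and of 0.327 after peroxide, and of 0.176 and 0.121 with the mean probe level, given as descriptions across genes on the same arrays. The 10 tested genes with the pyrimidine run at the start, as printed above for 6, counted 2 up and 5 down on capture in untreated cells (median -0.24), and the 42 without it 1 up and 12 down (median -0.21). After peroxide the counts were 0 up and 3 down (median -0.24) and 1 up and 17 down (median -0.15). Over all features, 16.4% rose and 16.1% fell in untreated cells, and 13.5% rose and 12.4% fell after peroxide. The difference between the sets with and without the run was not tested. Among the 10, Rps15a and Rpl28 rose while Rps21 and Rps27 fell in untreated cells, so genes with a like start moved in both directions.

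Other TOP mRNAs, which encode translation factors and related proteins, were set beside the ribosomal protein genes. Of 17 tested, 3 rose and 1 fell on capture in untreated cells (median 0.07), and 4 rose and 1 fell after peroxide (median 0.14). In untreated cells this was 17.6% up and 5.88% down, with the rises near the 16.4% of all features, of which 16.1% fell. After peroxide it was 23.5% and 5.88%, against 13.5% and 12.4%. A difference from the ribosomal protein genes was not tested. Eif3f, a subunit of initiation factor eIF3, rose by 0.47 ± 0.08 (adjusted p = 0.000367) and 0.43 ± 0.08 (adjusted p = 0.000948). Eef2, the translocation factor of elongation, fell by 0.64 ± 0.17 (adjusted p = 0.0108) after peroxide. In total RNA, Tpt1, an abundant TOP mRNA, rose with peroxide by 0.75 ± 0.14 (adjusted p = 0.0174), and it also rose in captured RNA by 0.80 ± 0.14 (adjusted p = 0.00061).

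Proteins of the mitochondrial ribosome, encoded in the nucleus by a separate gene set, gave 9 up and 34 down of 70 on capture in untreated cells (median -0.27). After peroxide they gave 4 up and 33 down (median -0.30). Their share of decreases, 48.6% and 47.1%, stood beside 35% and 40% for the cytosolic set and 16.1% and 12.4% of all features. The difference between the sets was not tested. Of 41 ribosome assembly factors, 4 rose and 10 fell in untreated cells (median -0.06) and 5 rose and 6 fell after peroxide (median 0.07). In untreated cells this was 9.76% up and 24.4% down, against 16.4% and 16.1% of all features. After peroxide it was 12.2% and 14.6%, near the 13.5% and 12.4% of all features. Changes in this list reached 0.63 in untreated cells and 0.85 after peroxide. Among them Nop10 and Nhp2, which belong to the pseudouridylation particle, fell by 0.82 ± 0.08 (adjusted p = 2.38e-06) and 0.45 ± 0.09 (adjusted p = 0.000825) in untreated cells. After peroxide they fell by 1.20 ± 0.08 (adjusted p = 3.35e-08) and 0.71 ± 0.09 (adjusted p = 1.38e-05).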

How the data were processed

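Per the file headers, the deposited scanner table gives each probe's bead intensity, before any normalization, with its detection p-value. The submitters' processing notes name GenomeStudio 2010.2. The step of the deposited p-values implies 798 negative controls. The authors' processed intensity table (mean 376 in every column, 28.2% of values below 0) was a linear function of the same signals and served as an alternative with a floor of 1. Depth has no meaning for arrays, and the 4 arrays per group limit the precision.

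Intensities were corrected with neqc in limma 3.58.1 (R 4.3.3; normexp, offset 16, quantile normalization, log2), which draws changes of dim probes towards 0. Probes with a detection p under 0.01 on all 4 arrays of a group were kept (10794), and the brightest stood for its gene, giving 8072 features, of which 7464 had a gene symbol. Group means were estimated by lmFit and eBayes over the 16 arrays (12 residual and 5.339 prior degrees of freedom). The model was tested on simulated data. Position on a chip and group cannot be told apart.

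The genes and lists were chosen with earlier results of these data known. Named genes were, per comparison, up to 10 raised and 10 lowered in order of p among those called and moved alike in all same-numbered comparisons, plus the stalk genes, Rpsa, Fau, Rpl5, Rpl11 and all genes called for peroxide, and up to 3 called genes of each list set beside them. Rpl11 and Rack1 had no tested probe. Protein lengths were not used here.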

Additional observations from a re-analysis of the deposited data

Results flagged for a closer look

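Among the 28 named genes, each of the 4 groups was examined for an array far from the other 3 (112 groups, by Dixon's ratio of the gap to the range). Chance flags about 1 in 20 groups, more than the 3 found. Rpl27 on Basal-total 1 read 13.82 against 13.98 to 14.00 on the others, a gap of 0.857 of the range. Rpl3 on Basal-ARP 3, the array with the lowest mean over these genes, read 14.00 against 14.17 to 14.19, a gap of 0.901. Rps7 on Basal-ARP 4 read 13.81 against 13.73 on each of the others, a gap share of 1. The equal Rps7 values come from equal ranks, which quantile normalization maps to the same value. No change on capture among the named genes differed with peroxide past the threshold.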

How the results depend on the processing

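Of the 50 calls of the 28 named genes, none changed sign under the alternatives run, 39 held without any 1 array and 20 held under every alternative. Many of the others were lost on 1 chip alone, where 2 arrays per group remain. In the untreated capture comparison, 12 members were called on chip 1 alone, and 21 to 26 on leaving out 1 array. Its median was -0.31 with median scaling, -0.43 without normalization (all features -0.11), -0.15 on chip 1 alone, and -0.23 to -0.17 without 1 array. In the capture comparison after peroxide, 14 were called on chip 1, 11 on chip 2 and 18 to 27 without 1 array. Its median was -0.32 with median scaling, -0.28 without normalization, -0.28 with cyclic loess, -0.094 without the filter on dim probes (67 members), -0.15 on chip 2, and -0.24 to -0.18 without 1 array. For peroxide in total RNA, 0 were called without normalization and 0 on chip 2. The median was 0.10 with median scaling, 0.12 without normalization and 0.01 to 0.04 without 1 array. For peroxide in captured RNA, 8 were called without normalization, beside 11.6% of all features. With chip as a block 20 were called, on chip 1 5, on chip 2 5 and without 1 array 10 to 15. The median was 0.017 with median scaling, 0.21 without normalization (all features 0.20), 0.0027 with cyclic loess and 0.014 with the authors' processed values, and 0.028 (without Basal-ARP 3) to 0.095 without 1 array. For the interaction, 2 were called with an offset of 50, 2 without background correction, 1 with cyclic loess and 1 with the authors' processed values. The count was 2 where a gene's probes were averaged and 5 with chip as a block. In these fits 1.62%, 1.62%, 1.45%, 2.7%, 1.86% and 6.52% of all features were called, in that order. Without 1 array the count was 0 to 1. It was 1 without Ox-total 2, without Basal-ARP 1 or without Ox-ARP 1. The median was -0.045 with median scaling and 0.13 without normalization (all features 0.14). The cause of these shifts was not tested.

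Same-numbered arrays did not all deviate together (24 pairs, r from -0.262 to 0.71, median 0.314; 0.283 for other numbers on the same chip), so the numbers mark no pairing beyond the chip. With the replicate block, 32, 31, 1 and 21 members were called in the comparisons in the order above, and 5 for the interaction. Beside them, 43.3%, 35.5%, 1.04% and 38.6% of all features were called in that fit, and 8.51% for the interaction. A planned description by coding length was not run, since no protein sequences were used here. Dim probes limit Rpl22l1 and Rpl39l. Whether bright probes near the top of the scale understate changes was not tested.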
